A study of Mus musculus with 6 samples.

Results

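Conditioned medium containing placental growth factor (PlGF) was compared with control conditioned medium on mouse splenic CD4+ T cells during the first hours of activation. The 4 arrays titled as PlGF or control supernatant were taken from the 6 of the series, 2 from cells in PlGF medium (PlGFCM) and 2 from cells in control medium (ConCM). All cells had been isolated from spleen with magnetic beads, kept in RPMI with 10% serum, and activated over 12 hours by antibodies against CD3 and CD28 (1 µg/ml). The remaining 2 arrays came from cells in control medium with IL-6 at 20 ng/ml (IL6_ConCM). The PlGF in PlGFCM was its PlGF2 form, made in excess by clones of HEK-293, a cell line from human embryonic kidney. The labels do not give the strain, age or sex of the mice or whether replicates were separate animals. They also do not describe the cells behind ConCM, so PlGF and any other difference between the media cannot be told apart.

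PlGF belongs to the VEGF family and acts through Flt1, its receptor, with Nrp1 as a co-receptor, and it is best known from blood vessel growth and the placenta. CD4+ T cells stimulated through CD3 and CD28 leave quiescence, begin to divide and take up 1 of several helper programs, among them the IL-17-producing Th17 and the interferon-gamma-producing Th1 program. IL-6 drives the Th17 program through the factor STAT3.

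Expression was measured on an Affymetrix whole-transcript array as log2 levels of probe sets. For each gene with a single symbol the probe set with the highest mean over all 6 arrays stood for the gene, 22180 genes in all. Differences were tested with limma on all 6 arrays. Since nothing in the labels says that replicates came from separate animals or cultures, the p-values cover the spread among these samples alone. That spread may be largely technical, although sex-linked transcripts, given below, differed between the PlGFCM arrays. A gene is said to have risen, fallen or been called where its Benjamini-Hochberg adjusted p was under 0.05, and it was separated where both PlGFCM arrays lay on the same side of both ConCM arrays. Values per array are given for replicate 1 and then replicate 2. Pearson's r across genes, which are not independent replicates, was 0.995 between the ConCM replicates, 0.994 between the PlGFCM replicates, and 0.993 to 0.994 between ConCM and PlGFCM arrays. Replicates were thus hardly closer to each other than to the other group. Because cells were measured in bulk, fewer cells of a type and less RNA per cell cannot be told apart.

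Markers of the labelled cell type were well above the median of all probe sets, which was 5.48. Cd4, the co-receptor that defines them, was at 11.26 and 11.39 in ConCM and 11.36 and 11.13 in PlGFCM. All 11 T cell markers had a mean level above that median. Averaged log2 levels on these 4 arrays ran from 10.16 to 10.25 for the T cell markers, 6.67 to 6.71 for 14 B cell markers, 5.83 to 5.89 for 21 markers of monocytes, macrophages and neutrophils and 5.68 to 5.82 for 12 markers of NK and CD8 T cells. Levels of different probe sets do not compare abundance, so these averages serve only to compare arrays. An array gives no true 0, and 8 of the 21 myeloid markers and 3 of the 14 B cell markers were below that median. PlGFCM replicate 2 stood apart in sex-linked transcripts. Xist, the RNA that coats the inactive X chromosome of female cells, was at 3.88 and 3.95 in ConCM and 3.58 and 8.38 in PlGFCM. On the same array the Y-linked Uty, Kdm5d and Eif2s3y had their lowest values of the 4, 7.50, 7.07 and 8.59. These were still above the median of 5.48, so Xist and the Y-linked transcripts were all above it on that array. Sex-linked transcripts thus differed within PlGFCM, and between PlGFCM replicate 2 and both ConCM arrays. A difference in donors was not tested and cannot be told apart from the medium on that array. Counts of all calls are therefore given with and without PlGFCM replicate 2. The same holds for each list median printed below that this array turns or moves by over 1.5 times. Some lists whose median is not printed moved as well. The median of the chemokine ligands was 0.080 with all arrays and -0.0072 without PlGFCM replicate 2, and that of the BCL2 family list was 0.059 and 0.15.

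In PlGFCM 96 genes (0.433% of those tested) were called, 78 of them higher (0.352%) and 18 lower (0.0812%), and 20 changed at least 2-fold. The changes ran from 2.44 for Hamp to -1.34 for Eomes on the log2 scale. All 96 were separated, as were 38.2% of all genes, 17.3% with PlGFCM higher and 20.9% with PlGFCM lower. Over all genes the median change was -0.014, which the normalization of the arrays holds near 0, 46.4% of genes had a positive and 53.6% a negative change, and 4.19% higher and 4.54% lower genes passed an unadjusted p of 0.05. Without PlGFCM replicate 2 all 96 kept their sign, and the change kept between 66.3% and 131% of its size with a median of 99.7%, but 12 were called, all higher. The number called was 15 without ConCM replicate 2, 22 without PlGFCM replicate 1 and 62 without ConCM replicate 1, where 15, 16 and 43 of them were among the 96. Hamp, Ly6g, Emp1, Ctsw, Timp1, Atp2b4, Ust and Cpt1a were called whichever of the 4 arrays was left out, and 47 of the 96 in none of those 4 fits. Without an intensity trend in the variance prior 6 genes were called, namely Hamp, Ly6g, Emp1, Ctsw, Timp1 and Cpt1a, and no other call named below held under that setting.

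**Figure D1:**
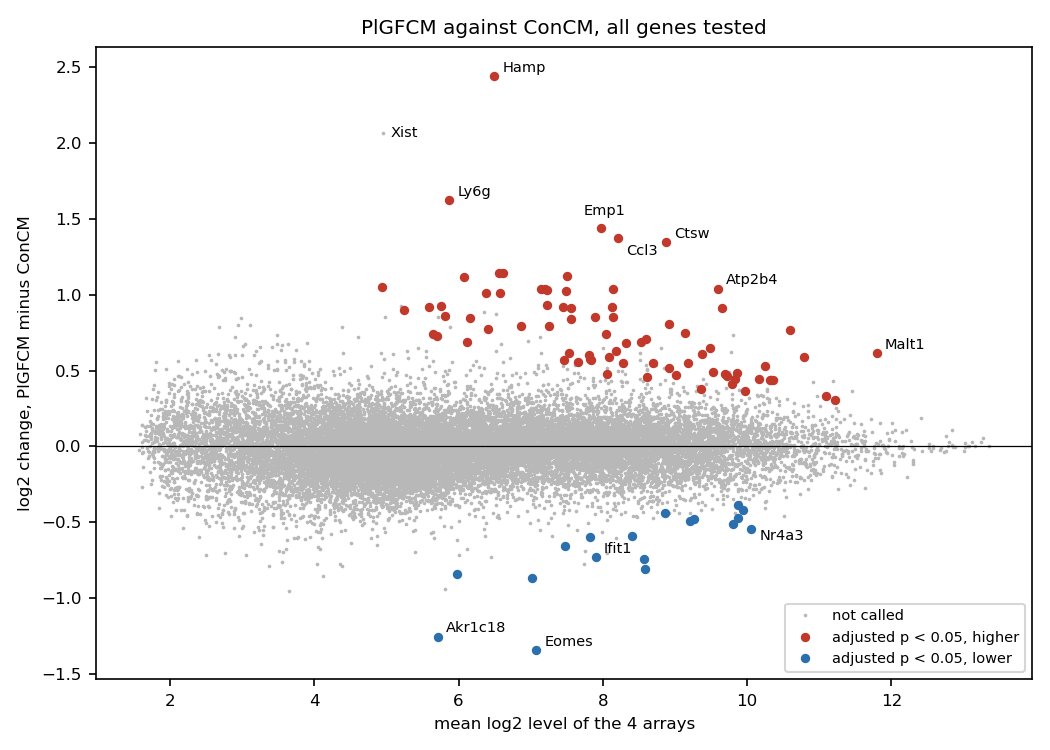
Log2 change between PlGFCM and ConCM against the mean log2 level of the 4 arrays, 1 point per gene for 22180 genes. The 78 genes called higher are red and the 18 called lower are blue, Hamp has the largest change at 2.44, and Xist, which was not called, is raised by PlGFCM replicate 2 alone.

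Hamp encodes hepcidin, a peptide hormone made mainly by the liver that closes the iron exporter ferroportin. It rose from 5.41 and 5.13 in ConCM to 7.91 and 7.52 in PlGFCM. This was 5.45-fold, 2.44 ± 0.17 (SE) on the log2 scale (limma, adjusted p = 9.6e-05). Both PlGFCM arrays lay more than 2 log2 units above both ConCM arrays. Its ConCM levels were below 5.48, the median of all probe sets, and no measure of background was used here, so the fold is that of the array values. Both ConCM arrays lay below that median for 9 of the 78 genes that rose, among them Hamp, Ly6g, Gzma, Il1r1, Jchain, Serpinb5 and Mmp13. Hamp was the only gene called among 24 on the list of hepcidin and iron handling, of which 15 had a positive change. Slc40a1, which encodes ferroportin itself, had a change of -0.70 that missed the threshold (adjusted p = 0.0632). The ferritin heavy chain Fth1 was at 0.18 (adjusted p = 0.38) and the heme oxygenase Hmox1 at 0.27 (adjusted p = 0.308). Lcn2, an iron-scavenging lipocalin, was at 5.62 and 5.35 in ConCM and 5.87 and 6.68 in PlGFCM, with PlGFCM replicate 2 highest.

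The sequence before the start of Hamp holds the palindrome TTCNNNGAA, the core that STAT factors recognise. Of the 78 genes that rose, 58 had a promoter in the RefSeq table (GRCm38.p6), and 4 of these (6.90%) carried the palindrome within 250 bases before a start, against 7.82% of 16990 genes tested that had a promoter in the table. The 4 are shown because they include Hamp and Socs3, a feedback inhibitor that STAT3 is known to induce. The last 160 bases before the start are printed 5′ to 3′ on the gene's strand with the palindrome in capitals, for Hamp chr7:30944030-30944189 (- strand), Socs3 chr11:117969367-117969526 (- strand), Emp1 chr6:135362771-135362930 (+ strand) and Ctla2a chr13:60936626-60936785 (- strand).
Hamp: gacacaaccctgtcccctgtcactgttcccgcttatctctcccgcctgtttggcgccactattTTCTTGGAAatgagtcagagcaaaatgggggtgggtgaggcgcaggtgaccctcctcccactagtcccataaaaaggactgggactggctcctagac
Socs3: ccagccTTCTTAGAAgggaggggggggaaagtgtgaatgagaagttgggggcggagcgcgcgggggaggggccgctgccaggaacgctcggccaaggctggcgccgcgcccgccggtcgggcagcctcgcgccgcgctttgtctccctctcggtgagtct
Emp1: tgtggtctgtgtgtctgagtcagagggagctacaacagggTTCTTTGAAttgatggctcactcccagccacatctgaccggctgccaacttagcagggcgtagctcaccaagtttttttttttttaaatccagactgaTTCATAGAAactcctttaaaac
Ctla2a: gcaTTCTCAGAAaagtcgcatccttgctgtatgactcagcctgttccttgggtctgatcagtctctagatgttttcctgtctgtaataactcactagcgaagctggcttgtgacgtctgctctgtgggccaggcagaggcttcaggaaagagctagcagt
Hamp, Socs3 and Ctla2a have 1 match each in these bases and Emp1 has 2. The palindrome reads the same on both strands. A match describes the letters and not binding, and the share among genes that rose was near that of all genes.

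Ly6g, Emp1, Ust, Muc1 and Olfr1303 also rose at least 2-fold. Ly6g, a small glycosylphosphatidylinositol-anchored protein best known as a neutrophil antigen, rose from 5.08 and 5.04 in ConCM to 6.68 and 6.69 in PlGFCM, by 1.62 ± 0.11 (SE). Genes of the Ly6 family are close in sequence, so the assignment of this signal to Ly6g is uncertain. The other 11 measured genes of the Ly6 list had changes from -0.37 to 0.49, and none was called. Emp1, a tetraspan membrane protein, rose from 7.33 and 7.17 in ConCM to 8.70 and 8.69 in PlGFCM (log2 change 1.44 ± 0.09 (SE)). Ust, a sulfotransferase that modifies glycosaminoglycans, went from 7.72 and 7.51 in ConCM to 8.62 and 8.69 in PlGFCM (log2 change 1.04 ± 0.10 (SE), adjusted p = 0.00112). Muc1, a transmembrane mucin, rose by 1.03, and Olfr1303, an olfactory receptor of a large gene family, which leaves its assignment uncertain, by 1.14. In each of these genes the lower PlGFCM array lay above the higher ConCM array. Muc1 was not called when either PlGFCM array was removed, with log2 changes over the 4 fits that each lacked 1 compared array of 0.83 to 1.23. Olfr1303 lost the call when either PlGFCM array or ConCM replicate 2 was removed (0.94 to 1.35).

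A protease and a gate of fatty acid oxidation had large increases with close replicates. Ctsw, the protease cathepsin W of cytotoxic lymphocytes, rose from 8.23 and 8.18 in ConCM to 9.48 and 9.63 in PlGFCM (log2 change 1.35 ± 0.08 (SE), adjusted p = 9.1e-05). Cpt1a, which loads long-chain fatty acids onto carnitine for import into mitochondria, rose from 6.97 and 6.998 in ConCM to 7.97 and 8.04 in PlGFCM (log2 change 1.02 ± 0.09 (SE), adjusted p = 0.00109). Slc25a20, the carrier that moves these acylcarnitines across the inner membrane, also rose, from 7.80 and 7.82 in ConCM to 8.34 and 8.25 in PlGFCM, by 0.48. These were the 2 called among 24 genes of fatty acid oxidation. The list's median was -0.016 (0.015 without PlGFCM replicate 2), and 11 of the 24 had a positive change. The enzymes of the oxidation cycle itself were not called, for example Hadh at -0.21 and Acadl at 0.19. Slc25a20 was not called when any 1 of the 6 arrays was removed, with log2 changes over the 4 fits that each lacked 1 compared array of 0.44 to 0.52. Slc25a20 was also not called with the 2 compared groups alone or after array medians were subtracted.

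**Figure D2:**
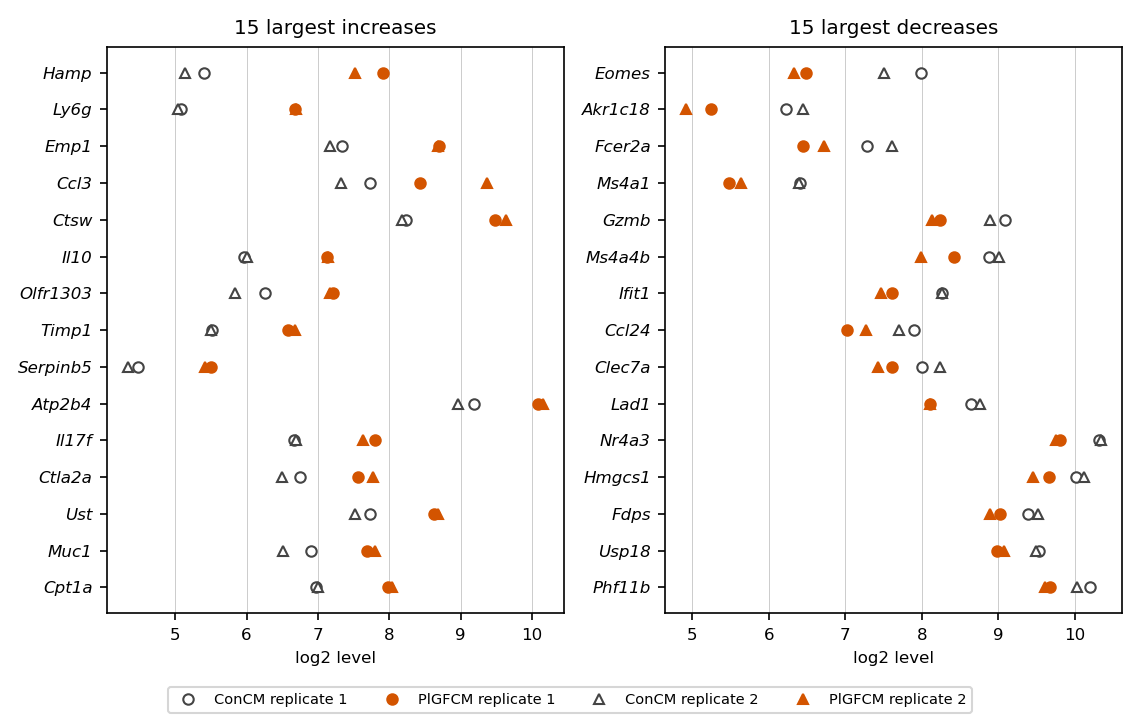
Log2 level on each ConCM array (open symbols) and each PlGFCM array (filled symbols) for the 15 genes with the largest increase and the 15 with the largest decrease among those called, circles for replicate 1 and triangles for replicate 2. The symbols of the groups do not overlap for any of these genes, and Ccl3 has the widest gap between its PlGFCM replicates, 8.43 against 9.36.

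Of 16 measured cytokine and receptor genes of the Th17 program 4 rose. Il10, which encodes an anti-inflammatory cytokine, rose from 5.96 and 6.01 in ConCM to 7.12 and 7.14 in PlGFCM, by 1.14 ± 0.15 (SE) (adjusted p = 0.00908). Il17f, a neutrophil-recruiting cytokine of Th17 cells, rose from 6.67 and 6.69 in ConCM to 7.80 and 7.64 in PlGFCM, by 1.04 ± 0.14 (SE) (adjusted p = 0.0103). The paralogue Il17a was at 5.35 and 5.76 in ConCM and 6.14 and 5.90 in PlGFCM, separated but not called (adjusted p = 0.376). Il21, which sustains Th17 and follicular helper cells, was at 9.81 and 9.07 in ConCM and 10.01 and 10.35 in PlGFCM and was not called either, with ConCM replicate 2 far below replicate 1. Il24, of the IL-10 family, had a change of 0.50 (adjusted p = 0.188). Receptors rose alongside: Il1r1, the signalling IL-1 receptor, from 5.19 and 5.37 in ConCM to 6.09 and 5.95 in PlGFCM, and Il6ra, the ligand-binding IL-6 receptor chain, from 9.63 and 9.55 in ConCM to 9.96 and 10.04 in PlGFCM. Il17ra, a shared receptor subunit for the IL-17 cytokines, was named after its values were seen and rose by 0.65 ± 0.09 (SE). The 4 that rose were the cytokines Il10 and Il17f and the receptors Il1r1 and Il6ra. Il10, Il1r1 and Il6ra are counted again on other lists below. None fell, 10 of the 16 had a positive change, and 8 were separated with PlGFCM higher and 2 with PlGFCM lower, with a median change of 0.25 (0.29 without PlGFCM replicate 2). Of all genes 0.352% rose, 46.4% had a positive change, 17.3% were separated upwards and 20.9% downwards. Il10 and Il17ra were not called when either PlGFCM array or ConCM replicate 2 was removed, with log2 changes over the 4 fits that each lacked 1 compared array of 1.12 to 1.17 and 0.53 to 0.76 in that order. Il17f, Il1r1 and Il6ra lost the call when any 1 of the 4 compared arrays was removed (0.96 to 1.13, 0.65 to 0.83 and 0.37 to 0.45 in order).

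Among Th17 transcription factors all 12 measured genes had a positive change and 11 were separated upwards, with a median of 0.17 and 0.17 without PlGFCM replicate 2. Over all genes 46.4% had a positive change and 17.3% were separated upwards. The 2 that rose were Ahr and Maf. Ahr, the ligand-activated aryl hydrocarbon receptor, went from 7.70 and 7.72 in ConCM to 8.56 and 8.57 in PlGFCM, a change of 0.85 ± 0.11 (SE). Maf, a bZIP factor that drives Il10 and Il21, went from 7.31 and 7.62 in ConCM to 8.41 and 8.23 in PlGFCM, a change of 0.85 ± 0.14 (SE). None of the others was called: Batf was at 0.29 (adjusted p = 0.322), Hif1a at 0.21 and Stat3 at 0.18. Stat3 was at 11.18 and 11.12 in ConCM and 11.37 and 11.29 in PlGFCM, so the groups were separated by a small step. Ahr was not called when either PlGFCM array or ConCM replicate 2 was removed, with log2 changes over the 4 fits that each lacked 1 compared array of 0.84 to 0.87. Maf lost the call when any 1 of the 4 compared arrays was removed (0.70 to 1.01).

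Of the aryl hydrocarbon receptor and its known targets only the receptor itself was called, 1 of 8 measured genes of this list, whose median was 0.093 (0.15 without PlGFCM replicate 2). Cyp1a1, the classical target, was at 5.05 and 5.26 in ConCM and 5.25 and 4.88 in PlGFCM, and its groups overlapped. Tiparp, a feedback inhibitor of the receptor, was at 8.13 and 8.16 in ConCM and 8.54 and 8.28 in PlGFCM, and Nqo1, an oxidoreductase, at 5.75 and 5.82 in ConCM and 6.01 and 5.84 in PlGFCM, neither called (adjusted p = 0.511 and 0.801). Arnt, the dimerisation partner, had a change of 0.13. The receptor's core letters GCGTG, searched on both strands within 250 bases before the start, stood in 17 of 58 genes that rose (29.3%) and in 37.2% of all genes with a promoter in the table.

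On the list of IL-10 and genes of IL-10-producing T cells the median was 0.38, and it was 0.34 without PlGFCM replicate 2. Il10, Ahr and Maf rose, and 15 of 17 measured genes had a positive change. Separated upwards were 12 and downwards 0, against 17.3% and 20.9% of all genes. Besides these 3, Entpd1, the ectonucleotidase CD39, was at 7.09 and 7.27 in ConCM and 7.68 and 7.73 in PlGFCM (adjusted p = 0.0778). Prdm1, which encodes the factor Blimp-1, was at 8.78 and 8.73 in ConCM and 9.10 and 9.17 in PlGFCM (adjusted p = 0.113). Tigit, an inhibitory receptor, was at 7.96 and 8.49 in ConCM and 8.90 and 8.69 in PlGFCM, where ConCM replicate 2 lay close to PlGFCM. None of these 3 was called.

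Among genes of IL-6 and STAT3 signalling, the feedback inhibitor Socs3 rose from 9.37 and 9.21 in ConCM to 9.87 and 9.69 in PlGFCM, by 0.49 ± 0.09 (SE) (adjusted p = 0.0442), and Il6ra by 0.41, and these were the 2 called among 21 measured genes. Jak2, a kinase of cytokine receptors, was at 10.82 and 10.80 in ConCM and 11.18 and 11.10 in PlGFCM and Bcl3, a STAT3-induced NF-kappaB cofactor, at 10.09 and 9.97 in ConCM and 10.42 and 10.32 in PlGFCM. Both were separated and missed the threshold (adjusted p = 0.0791 and 0.0806). The shared receptor subunit Il6st was at 0.21 and Junb at 0.24, whereas the kinase Pim2 was at -0.24. Il6 itself was at 5.22 and 5.65 in ConCM and 5.86 and 5.74 in PlGFCM. The median of the list was 0.11, 12 genes were separated upwards and 3 downwards, against 17.3% and 20.9% of all genes. Socs3 was not called when any 1 of the 4 compared arrays was removed, with log2 changes over the 4 fits that each lacked 1 compared array of 0.40 to 0.59. Socs3 was also not called after array medians were subtracted or with the mean of all its probe sets.

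Ligands and the signalling receptor of IL-1 rose. The ligands Il1a and Il1b, pro-inflammatory cytokines, went from 8.66 and 8.38 in ConCM to 9.45 and 9.21 in PlGFCM and from 9.02 and 9.12 in ConCM to 9.78 and 9.58 in PlGFCM. Their changes were 0.81 ± 0.13 (SE) and 0.61 ± 0.09 (SE) (adjusted p = 0.0223 and 0.0155). With Il1r1, 3 of 17 measured genes of the family rose and none fell. The antagonist Il1rn was at 7.22 and 7.26 in ConCM and 7.66 and 7.85 in PlGFCM (adjusted p = 0.0665) and the decoy receptor Il1r2 at 7.23 and 7.64 in ConCM and 7.96 and 7.77 in PlGFCM (adjusted p = 0.406). Il33 had a negative change of -0.28. The median was 0.11 (0.22 without PlGFCM replicate 2) and 10 genes were separated upwards, against 17.3% of all genes. Il1a, Il1b and Il1rn are also made by myeloid cells. Among 21 markers of monocytes, macrophages and neutrophils, Clec4e, a C-type lectin that senses mycobacterial lipid, rose from 5.84 and 5.62 in ConCM to 6.55 and 6.61 in PlGFCM, whereas Clec7a, the beta-glucan receptor, fell from 7.997 and 8.23 in ConCM to 7.61 and 7.43 in PlGFCM. Of the rest Cd14 was at 6.25 and 6.26 in ConCM and 6.95 and 6.91 in PlGFCM (adjusted p = 0.0806), and the complement genes C1qb and C1qc were at -0.49 and -0.41. These myeloid markers had a positive change in 10 of 21, and their part in the IL-1 values was not tested. Il1a, Clec4e and Clec7a were not called when either PlGFCM array or ConCM replicate 2 was removed, with log2 changes over the 4 fits that each lacked 1 compared array of 0.67 to 0.95, 0.74 to 0.96 and -0.72 to -0.48 in that order. Il1b lost the call when any 1 of the 4 compared arrays was removed (0.51 to 0.71). Clec7a was also not called after array medians were subtracted or with a replicate block.

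Chemokine ligands were called in both directions. Ccl3, which attracts monocytes and T cells, was at 7.73 and 7.32 in ConCM and 8.43 and 9.36 in PlGFCM, the widest gap between PlGFCM replicates among the called genes, with a change of 1.37 ± 0.23 (SE) (adjusted p = 0.0311). Its change was 0.91 without PlGFCM replicate 2. Ccl24, an eosinophil attractant, fell from 7.90 and 7.70 in ConCM to 7.02 and 7.27 in PlGFCM, by 0.65. Ccl5 was at 8.37 and 8.58 in ConCM and 9.36 and 8.89 in PlGFCM and the interferon-induced Cxcl9 at 8.57 and 8.73 in ConCM and 8.37 and 8.01 in PlGFCM, neither called (adjusted p = 0.0933 and 0.202). Of 18 measured ligands 1 rose and 1 fell. No member of 19 measured chemokine receptors was called, and the nearest were Ccr8 at -0.43, Cxcr1 at 0.72 and Cxcr5 at 0.36 (adjusted p = 0.179 for each). Ccl3 was not called when PlGFCM replicate 2 or either ConCM array was removed, with log2 changes over the 4 fits that each lacked 1 compared array of 0.91 to 1.84. Ccl24 lost the call when any 1 of the 4 compared arrays was removed (-0.78 to -0.53). Ccl3 was also not called after quantile normalization or with a robust prior, and neither Ccl3 nor Ccl24 was called with a replicate block.

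Of the feedback inhibitors of the TGF-beta pathway 3 rose. Smad7, an inhibitory SMAD, went from 7.76 and 7.82 in ConCM to 8.41 and 8.35 in PlGFCM and Skil, a co-repressor of SMAD complexes, from 8.42 and 8.42 in ConCM to 8.92 and 9.01 in PlGFCM. Pmepa1, a membrane protein that dampens SMAD signalling, went from 8.28 and 8.09 in ConCM to 8.84 and 8.91 in PlGFCM. Their changes were 0.59 ± 0.09 (SE), 0.55 ± 0.08 (SE) and 0.69 ± 0.10 (SE) (adjusted p = 0.0176, 0.0168 and 0.0135). Ldlrad4, a related SMAD inhibitor outside the list and named after its values were seen, rose by 0.74 ± 0.13 (SE). The co-repressor Ski was at 8.43 and 8.49 in ConCM and 8.81 and 8.82 in PlGFCM and missed the threshold (adjusted p = 0.0974), and the ligand Tgfb3 was at 0.48. The receptor Tgfbr2 was at 0.20 and Smad3 at 0.26. Over the 28 measured genes 3 rose and none fell, and the median was 0.07. Separated upwards were 13 and downwards 1, against 17.3% and 20.9% of all genes. Smad7, Skil and Ldlrad4 were not called when any 1 of the 4 compared arrays was removed, with log2 changes over the 4 fits that each lacked 1 compared array of 0.56 to 0.62, 0.50 to 0.60 and 0.58 to 0.90 in that order. Pmepa1 lost the call when either PlGFCM array or ConCM replicate 2 was removed (0.59 to 0.79). Ldlrad4 was also not called after quantile normalization.

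Genes of the Th1 and cytotoxic programs were called in both directions. Eomes, the T-box factor of cytotoxic and memory T cells, fell from 7.99 and 7.50 in ConCM to 6.48 and 6.32 in PlGFCM, by 1.34 (SE 0.17, adjusted p = 0.00908), the largest decrease measured here among called genes. Its relative Tbx21, which encodes T-bet, was at 9.004 and 8.93 in ConCM and 8.67 and 8.76 in PlGFCM (adjusted p = 0.592). Ifngr1, the ligand-binding chain of the interferon-gamma receptor, rose by 0.33 ± 0.06 (SE). These were the 2 called among 14 measured Th1 genes, with a median of -0.018. Of 19 measured genes of granule proteases and cytotoxicity 2 rose, Ctsw and Gzma, and 1 fell, Gzmb. Granzyme A, from Gzma, went from 5.41 and 5.18 in ConCM to 6.17 and 6.28 in PlGFCM, while granzyme B, from Gzmb, went from 9.09 and 8.88 in ConCM to 8.23 and 8.13 in PlGFCM, opposite directions for the granzymes A and B. Perforin, from Prf1, was at 6.71 and 6.72 in ConCM and 7.04 and 7.07 in PlGFCM (adjusted p = 0.283), and Serpinb9, which inhibits granzyme B, at 9.06 and 9.36 in ConCM and 8.95 and 8.69 in PlGFCM (adjusted p = 0.283). Among 12 markers of NK and CD8 T cells, Cd8b1 was at 8.31 and 8.14 in ConCM and 7.98 and 8.05 in PlGFCM and 5 had a positive change, and the part of such cells in these values was not tested. Eomes was not called when either PlGFCM array was removed, with log2 changes over the 4 fits that each lacked 1 compared array of -1.59 to -1.10. Gzma lost the call when either PlGFCM array or ConCM replicate 2 was removed (0.81 to 1.04). Gzmb lost the call when either PlGFCM array or ConCM replicate 1 was removed (-0.91 to -0.70). Ifngr1 lost the call when any 1 of the 6 arrays was removed (0.26 to 0.40). Ifngr1 was also not called after array medians were subtracted, with the mean of its probe sets, with array weights or with the 2 compared groups alone.

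Th2, regulatory and follicular helper genes showed 1 call between them. Gata3, the Th2 factor, was at 8.57 and 8.71 in ConCM and 8.33 and 8.46 in PlGFCM (adjusted p = 0.575), and of 13 measured Th2 genes Ccl24 was the only gene called. Il4ra, the IL-4 receptor, was at 11.17 and 11.04 in ConCM and 11.37 and 11.36 in PlGFCM (adjusted p = 0.145). Foxp3, which defines regulatory T cells, was at 10.68 and 10.96 in ConCM and 11.08 and 10.96 in PlGFCM, where ConCM replicate 2 matched PlGFCM replicate 2. None of 18 measured regulatory T cell genes was called, 15 had a positive change, and the median was 0.11. Nor was any of 15 follicular helper genes, whose median was 3.5e-05 (0.034 without PlGFCM replicate 2). Cxcr5, the homing receptor of these cells, was at 8.85 and 8.66 in ConCM and 9.18 and 9.05 in PlGFCM (adjusted p = 0.179).

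Of the inhibitory receptors Ceacam1 alone was called. Ceacam1, an adhesion molecule that inhibits T cells, rose from 5.74 and 6.02 in ConCM to 7.21 and 6.58 in PlGFCM, by 1.01 ± 0.18 (SE), with a wide gap between the PlGFCM arrays. It was 1 of 19 inhibitory receptors and ligands, of which 16 had a positive change and whose median was 0.14. Vsir, the checkpoint VISTA, was at 9.68 and 9.55 in ConCM and 10.01 and 9.92 in PlGFCM (adjusted p = 0.0806). Of 14 measured genes of IL-2, its receptor and STAT5 none was called. Il21r, the IL-21 receptor, was at 10.32 and 10.03 in ConCM and 10.63 and 10.62 in PlGFCM and came closest (adjusted p = 0.0527), followed by the transcription factor Stat5a at 9.48 and 9.56 in ConCM and 9.84 and 9.97 in PlGFCM (adjusted p = 0.0908). Akr1c18, a steroid-metabolising enzyme induced by IL-3, fell from 6.22 and 6.45 in ConCM to 5.24 and 4.92 in PlGFCM, by 1.25 (adjusted p = 0.0051), and no other of 13 genes on the list of IL-3, GM-CSF and their receptors was called. Ceacam1 was not called when PlGFCM replicate 1 or either ConCM array was removed, with log2 changes over the 4 fits that each lacked 1 compared array of 0.70 to 1.33. Akr1c18 lost the call when PlGFCM replicate 2 or ConCM replicate 2 was removed (-1.41 to -1.09).

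Immediate early genes gave 2 increases and 1 decrease, and the AP-1 and BATF list gave 2 increases. Fosl2, an AP-1 subunit that restrains Th17 plasticity, rose from 8.97 and 8.85 in ConCM to 9.54 and 9.38 in PlGFCM and the stress-response gene Ier3 from 8.74 and 8.79 in ConCM to 9.70 and 9.33 in PlGFCM. Nr4a3, an orphan nuclear receptor induced by antigen receptor signals, fell from 10.31 and 10.34 in ConCM to 9.81 and 9.76 in PlGFCM, by 0.55. These 3 were the ones called among 27 measured immediate early genes, with a median of 0.14. On the AP-1 and BATF list 20 of 22 had a positive change and 2 rose, Fosl2 and Maf. Jun was at 0.26, Junb at 0.24 and Jund at 0.14, none of them called. Malt1, the paracaspase that links the T cell receptor to NF-kappaB, rose from 11.58 and 11.40 in ConCM to 12.08 and 12.13 in PlGFCM, by 0.62 ± 0.06 (SE) (adjusted p = 0.002), the only call among 26 genes of T cell receptor signalling. No NF-kappaB subunit or inhibitor was called, yet 17 of 19 had a positive change and 13 were separated upwards, with a median of 0.16, against 17.3% of all genes separated upwards. Tnfaip3, which encodes the inhibitor A20, was at 9.92 and 9.82 in ConCM and 10.09 and 10.29 in PlGFCM (adjusted p = 0.179) and Tnip1, its binding partner, at 8.46 and 8.33 in ConCM and 8.72 and 8.72 in PlGFCM (adjusted p = 0.187). Fosl2 was not called when either PlGFCM array or ConCM replicate 2 was removed, with log2 changes over the 4 fits that each lacked 1 compared array of 0.47 to 0.63. Ier3 lost the call when PlGFCM replicate 1 or either ConCM array was removed (0.56 to 0.93). Nr4a3 lost the call when any 1 of the 4 compared arrays was removed (-0.57 to -0.52). Malt1 lost the call when PlGFCM replicate 2 was removed (0.53 to 0.71).

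Survival, calcium and homing genes each gave 1 or 2 increases. Morrbid, a long non-coding RNA that represses the death gene Bcl2l11, rose from 7.34 and 6.85 in ConCM to 7.97 and 8.05 in PlGFCM, and Bcl2l11 itself was at 8.89 and 8.88 in ConCM and 9.27 and 9.19 in PlGFCM (adjusted p = 0.123). With Ier3, Morrbid made 2 calls among 21 measured genes of the list. Atp2b4, a plasma membrane calcium pump, rose from 9.19 and 8.96 in ConCM to 10.08 and 10.15 in PlGFCM, by 1.04 ± 0.08 (SE) (adjusted p = 0.000366), while the other 19 calcium genes were not called. S1pr1, the receptor for exit from lymphoid tissue, rose from 10.13 and 10.07 in ConCM to 10.54 and 10.54 in PlGFCM, by 0.44 ± 0.06 (SE). Klf2, the factor that drives S1pr1, was at 8.86 and 8.98 in ConCM and 9.30 and 9.32 in PlGFCM and just missed the threshold (adjusted p = 0.071), and Foxo1, which acts above Klf2, was at 9.70 and 9.69 in ConCM and 9.89 and 9.99 in PlGFCM (adjusted p = 0.271). Of 23 measured quiescence and homing genes 20 had a positive change, with a median of 0.16. On this list 11 were separated upwards, against 17.3% of all genes. Tnfrsf26, a TNF receptor family member, rose by 0.44, the only call among 25 listed TNF family genes. Its relative Tnfrsf23, a decoy receptor for TRAIL that was not on the list and was named after its values were seen, rose by 0.68. Morrbid and S1pr1 were not called when either PlGFCM array or ConCM replicate 2 was removed, with log2 changes over the 4 fits that each lacked 1 compared array of 0.67 to 1.16 and 0.40 to 0.47 in that order. Tnfrsf26 and Tnfrsf23 lost the call when any 1 of the 4 compared arrays was removed (0.38 to 0.50 and 0.59 to 0.77 in order).

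Of 25 measured proteases, inhibitors and serpins 4 rose and none fell, where 0.352% of all genes rose and 0.0812% fell. Separated upwards were 13 and downwards 1, against 17.3% and 20.9% of all genes. The mean level of 10 of the 25 was below the median of all probe sets. Timp1, an inhibitor of matrix metalloproteinases, rose from 5.52 and 5.50 in ConCM to 6.58 and 6.67 in PlGFCM, by 1.12 ± 0.11 (SE) (adjusted p = 0.002). Ctla2a, a cysteine protease inhibitor, rose from 6.75 and 6.49 in ConCM to 7.56 and 7.77 in PlGFCM and Serpinb5, known as maspin, from 4.48 and 4.34 in ConCM to 5.51 and 5.42 in PlGFCM. Mmp13, a collagenase, rose from 4.92 and 4.67 in ConCM to 5.71 and 5.67 in PlGFCM. Ctla2b, the neighbour of Ctla2a in sequence, was at 4.74 and 4.73 in ConCM and 5.15 and 6.18 in PlGFCM, where PlGFCM replicate 2 stood far above the rest, and it was not called (adjusted p = 0.243). Carboxypeptidase D, from Cpd, which trims basic residues in the secretory path, rose from 7.14 and 7.13 in ConCM to 8.08 and 7.88 in PlGFCM, by 0.84 ± 0.10 (SE), and Neb, which encodes the muscle protein nebulin, rose by 0.92 ± 0.14 (SE). Ctla2a was not called when PlGFCM replicate 2 or ConCM replicate 2 was removed, with log2 changes over the 4 fits that each lacked 1 compared array of 0.91 to 1.17. Serpinb5 lost the call when any 1 of the 4 compared arrays was removed (0.98 to 1.12). Mmp13 lost the call when either PlGFCM array or ConCM replicate 2 was removed (0.77 to 1.02). Cpd lost the call when PlGFCM replicate 1 or ConCM replicate 2 was removed (0.74 to 0.94). Neb lost the call when PlGFCM replicate 1 or either ConCM array was removed (0.72 to 1.13).

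**Figure D3:**
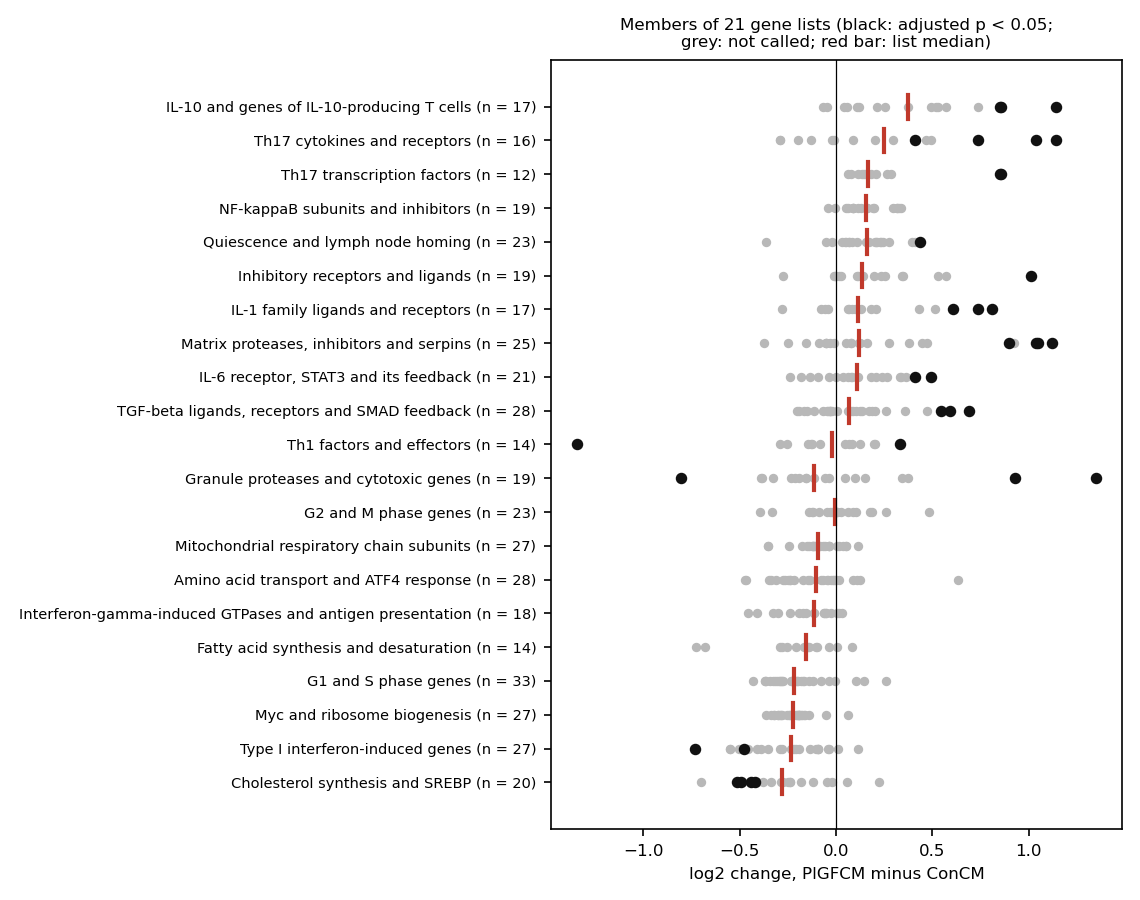
Log2 change of every measured member of 21 gene lists, 1 point per gene, black where called and grey where not, with the list median as a red bar. The IL-10 list has the highest median of those shown, 0.38, and the cholesterol list the lowest, -0.28, while the median of all genes was -0.014.

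Cholesterol synthesis genes were lower in PlGFCM. Cells make cholesterol from acetyl-CoA through HMG-CoA and a chain of isoprenoids and sterols, under the control of SREBP factors that Insig proteins hold back. Of 20 measured genes 4 fell (0.0812% of all genes tested fell) and none rose. Separated downwards were 15 and upwards 1, against 20.9% and 17.3% of all genes. The median was -0.28 (-0.22 without PlGFCM replicate 2). At the start of the chain Hmgcs1, the HMG-CoA synthase, fell from 10.02 and 10.12 in ConCM to 9.66 and 9.45 in PlGFCM, by 0.51. In the middle Fdps, which makes farnesyl diphosphate, fell from 9.38 and 9.52 in ConCM to 9.02 and 8.89 in PlGFCM. At its end Dhcr7, the last reductase, fell from 9.10 and 9.06 in ConCM to 8.67 and 8.60 in PlGFCM, and the sensor Insig1 fell from 10.09 and 10.21 in ConCM to 9.75 and 9.71 in PlGFCM. The largest change, -0.70 for lanosterol synthase (Lss), missed the threshold, with PlGFCM arrays apart at 7.95 and 7.46 (adjusted p = 0.0573). Hsd17b7 had a change of -0.50 (adjusted p = 0.0506). Hmgcs1, Fdps, Dhcr7 and Insig1 were not called when any 1 of the 4 compared arrays was removed, with log2 changes over the 4 fits that each lacked 1 compared array of -0.62 to -0.41, -0.56 to -0.43, -0.47 to -0.41 and -0.48 to -0.36 in that order. Dhcr7 and Insig1 were also not called after array medians were subtracted. With a replicate block, described at the end, Fdps and Dhcr7 were not called either (limma, adjusted p = 0.055 for both).

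The promoter of Hmgcs1, at chr13:119690191-119690350 (+ strand), is shown because it holds CACNCCAC, core letters of the sterol element, on the gene's strand.
Hmgcs1: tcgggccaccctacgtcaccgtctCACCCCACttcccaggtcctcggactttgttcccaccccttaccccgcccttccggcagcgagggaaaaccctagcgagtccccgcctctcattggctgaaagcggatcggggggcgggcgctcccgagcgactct
The same letters, on either strand within 250 bases before a start, stood in 2 of 16 cholesterol genes with a promoter in the table (12.5%) and in 6.18% of all genes with one.

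Fatty acid synthesis lay lower as well, with no call among 14 measured genes and a median of -0.16. Separated downwards were 10 and upwards 0, against 20.9% and 17.3% of all genes. Fasn, the fatty acid synthase, was at 10.11 and 10.02 in ConCM and 9.89 and 9.68 in PlGFCM (adjusted p = 0.289) and Acaca, which makes its substrate malonyl-CoA, at 8.43 and 8.35 in ConCM and 8.19 and 8.01 in PlGFCM (adjusted p = 0.325). The desaturase Scd1 was at 6.73 and 6.88 in ConCM and 6.58 and 5.58 in PlGFCM, a mean change of -0.73 with PlGFCM replicate 2 far below the other 3. LXR targets and sterol efflux genes, 9 measured, had no call and a median of -0.046 (0.10 without PlGFCM replicate 2), for example Abcg1 at -0.28 and Npc1 at 0.24.

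Type I interferon-induced genes were lower in PlGFCM than in ConCM. Of 27 measured genes 2 fell and none rose, 21 were separated downwards, 0 upwards, and the median was -0.23 (-0.17 without PlGFCM replicate 2). Over all genes 0.0812% fell, 20.9% were separated downwards and 17.3% upwards. Ifit1, which binds foreign RNA, fell from 8.27 and 8.27 in ConCM to 7.61 and 7.46 in PlGFCM, by 0.73 (adjusted p = 0.00877). Usp18, which removes ISG15 and damps the receptor, fell from 9.53 and 9.49 in ConCM to 8.98 and 9.08 in PlGFCM, by 0.48. Next were Oasl2 at 7.47 and 7.35 in ConCM and 6.82 and 6.89 in PlGFCM (adjusted p = 0.0659) and Rtp4 at 8.42 and 8.23 in ConCM and 7.87 and 7.87 in PlGFCM (adjusted p = 0.0761). The interferon-gamma-induced GTPases and antigen presentation genes had no call among 18, a median of -0.12 and 10 genes separated downwards. Ifit1 was not called when PlGFCM replicate 2 or ConCM replicate 2 was removed, with log2 changes over the 4 fits that each lacked 1 compared array of -0.80 to -0.66. Usp18 lost the call when any 1 of the 4 compared arrays was removed (-0.52 to -0.43). The list's mean deviation from the 6-array mean was 0.28 and 0.14 on the ConCM arrays, -0.083 and -0.053 on the PlGFCM arrays, and -0.13 and -0.15 on the IL6_ConCM arrays. The ConCM arrays thus lay above both treated groups.

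The promoter of Ifit1, at chr19:34640729-34640888 (+ strand), is shown for its pair of interferon-response elements, a core of repeated GAAA with a spacer between, here matched on the opposite strand and set in capitals.
Ifit1: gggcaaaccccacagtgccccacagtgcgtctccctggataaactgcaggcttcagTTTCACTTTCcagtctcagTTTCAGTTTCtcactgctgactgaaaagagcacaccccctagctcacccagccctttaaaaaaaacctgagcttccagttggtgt
On either strand this core stood in 8 of 19 interferon-induced genes with a promoter in the table (42.1%), in 3 of 14 genes that fell (21.4%; Eomes, Ifit1 and Phf11b) and in 3.40% of all genes with one.

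Genes of G1 and S phase and of ribosome production lay lower in PlGFCM by small steps, and none on these lists was called. Among 33 measured G1 and S phase genes 26 were separated downwards and 3 upwards, against 20.9% and 17.3% of all genes, with a median of -0.22. The helicase subunits Mcm6 and Mcm3 were at 10.46 and 10.41 in ConCM and 10.19 and 9.94 in PlGFCM and at 10.02 and 10.13 in ConCM and 9.82 and 9.75 in PlGFCM (adjusted p = 0.155 and 0.213). G2 and M phase genes had 3 of 23 separated downwards, 6 upwards and a median of -0.0029 (0.11 without PlGFCM replicate 2). Myc and ribosome biogenesis genes, which supply new ribosomes to growing cells, had a median of -0.22, 23 of 27 separated downwards, 1 upwards and no call. Dkc1, of the ribosomal RNA pseudouridylation complex, was at 10.32 and 10.18 in ConCM and 9.98 and 9.87 in PlGFCM (adjusted p = 0.175) and Nop56 at 11.08 and 10.89 in ConCM and 10.73 and 10.68 in PlGFCM (adjusted p = 0.281). On the list of amino acid transport and the ATF4 response 15 of 28 were separated downwards, the median was -0.11, and the one-carbon enzymes Mthfd2 and Shmt2 were at -0.47 and -0.34 (adjusted p = 0.0728 and 0.098). Mitochondrial respiratory chain subunits had a median of -0.093 with 11 of 27 separated downwards, and proteasome subunits one of -0.056 with 9 of 24. Ezh2, a histone methyltransferase on none of these lists and named after its values were seen, fell by 0.38. Cks2, a cell cycle gene also outside these lists and named after its values were seen, rose by 0.52. Cks2 lost the call when any 1 of the 4 compared arrays was removed, with log2 changes of 0.46 to 0.57. It was also not called with the mean of its probe sets. Without PlGFCM replicate 2 the medians of the G1 and S phase, ribosome, amino acid and respiratory lists were -0.19, -0.24, -0.10 and -0.051. Ezh2 was not called when any 1 of the 4 compared arrays was removed, with log2 changes over the 4 fits that each lacked 1 compared array of -0.42 to -0.35. Ezh2 was also not called after array medians were subtracted or with a replicate block.

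Beside Emp1, counted above, none of 24 adhesion genes was called. Nor was any gene of the Notch and Wnt, oxidative stress, p53, endoplasmic reticulum and heat shock, or prostanoid lists (19, 18, 17, 25 and 15 measured), whose medians were 0.12, 0.091, 0.061, -0.011 and -0.052. Without PlGFCM replicate 2 the oxidative stress, p53 and endoplasmic reticulum medians were 0.14, 0.10 and -0.03. Glycolysis and HIF-1 targets had no call among 25 measured genes and a median of 0.038 (0.14 without PlGFCM replicate 2). P4ha1, a HIF-induced collagen hydroxylase, was at 10.05 and 10.05 in ConCM and 10.43 and 10.33 in PlGFCM (adjusted p = 0.0761) and the glucose transporter Slc2a1 at 11.22 and 11.30 in ConCM and 11.49 and 11.39 in PlGFCM (adjusted p = 0.376). Neither PlGF nor its receptors were called in these cells. Pgf, the gene of PlGF, was at 5.28 and 5.61 in ConCM and 5.77 and 5.42 in PlGFCM, and human transcripts of the medium's producer cells were not measured. The receptor Flt1 was at 5.51 and 5.50 in ConCM and 5.60 and 5.32 in PlGFCM, close to the median level of all probe sets, and the co-receptor Nrp1 at 6.49 and 7.13 in ConCM and 7.18 and 6.77 in PlGFCM. The groups overlapped in all 3. None of the 10 measured ligands and receptors of the family was called, and their median was 0.0061 (0.092 without PlGFCM replicate 2). The sign of the change in Pgf and Nrp1 turned without ConCM replicate 1 or PlGFCM replicate 1, to -0.018 and -0.026 for Pgf and to -0.15 and -0.037 for Nrp1, and that of Flt1 without PlGFCM replicate 2, to 0.098.

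Of 14 B cell markers 2 fell and none rose, where 0.0812% of all genes fell and 0.352% rose. Ms4a1, which encodes the antigen CD20, fell from 6.41 and 6.39 in ConCM to 5.47 and 5.64 in PlGFCM, by 0.84 (adjusted p = 0.0125), and Fcer2a, the low-affinity IgE receptor CD23, from 7.29 and 7.61 in ConCM to 6.45 and 6.72 in PlGFCM, by 0.86 (adjusted p = 0.0206). Most of the list went the other way. Over the 14 markers 10 had a positive change, against 46.4% of all genes, and the median was 0.15. Separated upwards were 6 and downwards 4, against 17.3% and 20.9% of all genes. The B cell factor Pax5 was at 6.90 and 6.72 in ConCM and 7.21 and 7.03 in PlGFCM and the antigen receptor subunit Cd79a at 6.99 and 6.88 in ConCM and 7.16 and 7.14 in PlGFCM, neither called. Ms4a4b, a T cell member of the same family as Ms4a1, fell from 8.87 and 9.01 in ConCM to 8.41 and 7.99 in PlGFCM, by 0.74. Jchain, which joins immunoglobulin polymers and was named after its values were seen, rose from 5.35 and 5.40 in ConCM to 6.24 and 6.22 in PlGFCM, by 0.86. Dendritic cell, erythroid and stromal markers, 10, 6 and 12 of them, had no call and medians of -0.11, -0.055 and -0.069, the erythroid median being -0.16 without PlGFCM replicate 2. The part of these cells in the values above was not tested. Ms4a1 and Jchain were not called when any 1 of the 4 compared arrays was removed, with log2 changes over the 4 fits that each lacked 1 compared array of -0.93 to -0.76 and 0.84 to 0.88 in that order. Fcer2a lost the call when either PlGFCM array or ConCM replicate 2 was removed (-1.02 to -0.70). Ms4a4b lost the call when PlGFCM replicate 2 or either ConCM array was removed (-0.95 to -0.53).

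**Figure D4:**
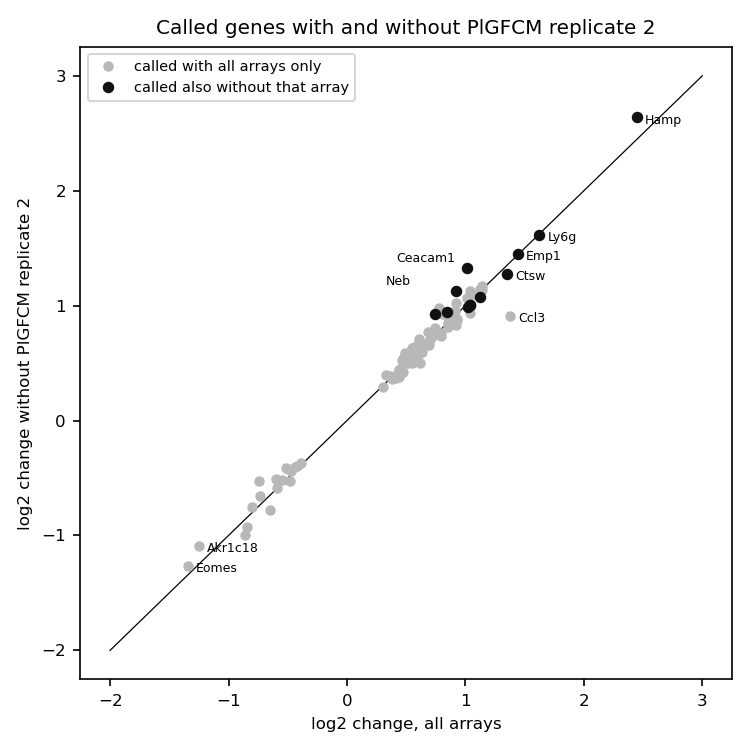
Log2 change of the 96 called genes with all arrays (x axis) and without PlGFCM replicate 2 (y axis), black where still called and grey where not, with the line of equal values. All 96 keep their sign, 12 keep their call, and Ccl3 drops from 1.37 to 0.91.

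Set directly against IL-6, 7 genes (0.0316% of those tested) were called, 7 higher in PlGFCM and 0 lower. Of the 22180 genes tested, 568 higher and 401 lower passed an unadjusted 0.05. That is fewer than this threshold would pass with no difference at all. The difference is taken between the PlGFCM and IL6_ConCM arrays, while the ConCM arrays enter the fit's estimate of the spread. It shares the PlGFCM arrays with the comparison above, and 5 genes were called when either ConCM array was removed. Hamp was at 6.27 and 5.86 on the IL6_ConCM arrays, between ConCM and PlGFCM, and PlGFCM lay 1.65 higher (adjusted p = 0.00671). Ctsw was at 8.65 and 8.57 with IL-6, a difference of 0.94 (adjusted p = 0.00463). Cpt1a was at 7.13 and 7.05, close to ConCM, a difference of 0.92 (adjusted p = 0.00671). Il1a, at 8.51 and 8.18, and Clec4e, at 5.63 and 5.54, had lower means with IL-6 than in ConCM, and PlGFCM lay 0.98 and 0.99 above them (adjusted p = 0.0282 for both). The last were Cpd, at 7.20 and 7.19, a difference of 0.78, and Aqp3, an aquaporin that also carries glycerol. Aqp3 was named after its values were seen, and it was at 6.81 and 6.72 in ConCM and 7.65 and 7.74 in PlGFCM, and at 6.80 and 6.97 with IL-6, a difference of 0.81 (adjusted p = 0.0282 for both Cpd and Aqp3). Without PlGFCM replicate 2 or without IL6_ConCM replicate 2 the number called was 0, and it was 4 without IL6_ConCM replicate 1 and 0 without an intensity trend.

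**Figure D5:**
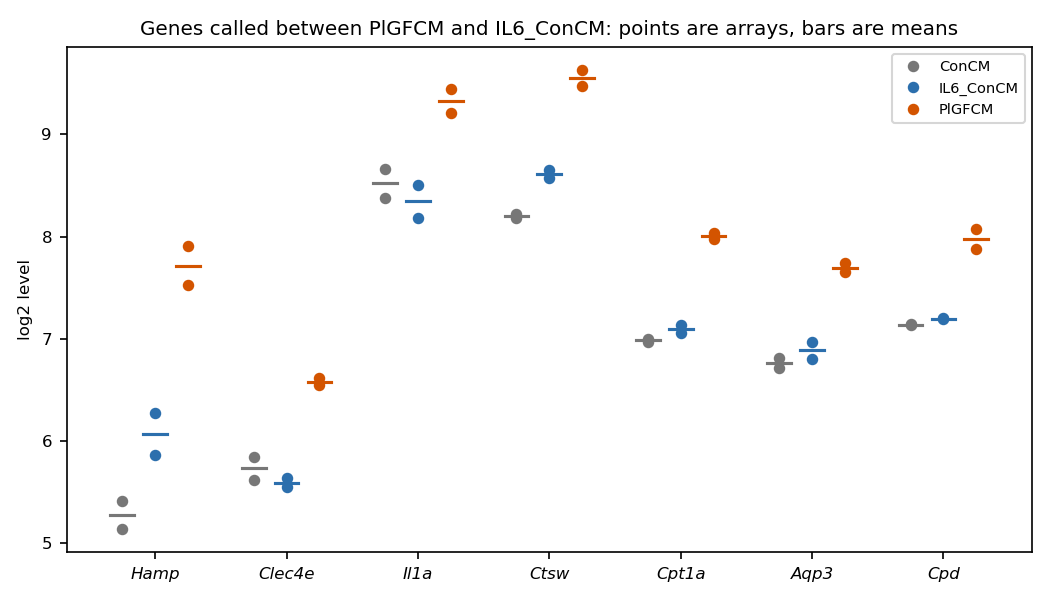
Log2 levels of the 7 genes called between PlGFCM and IL6_ConCM on the 2 arrays of each group, with the group mean as a bar. In every one of them both PlGFCM arrays lie above all 4 others, and Hamp with IL-6 lies between ConCM and PlGFCM at 6.27 and 5.86.

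Some other called genes had a level with IL-6 near that in PlGFCM. Of the 78 genes that rose against ConCM, 64 had a higher mean in PlGFCM than with IL-6. The same PlGFCM arrays gave those calls, so this count is not independent of them. Ly6g was at 6.48 and 6.35 on the IL6_ConCM arrays, and PlGFCM lay 0.27 higher (adjusted p = 0.998). Muc1 was at 7.76 and 7.76, Gzma at 6.49 and 6.34 and Morrbid at 7.95 and 8.10, with differences from PlGFCM of -0.022, -0.19 and -0.0097. Eomes, which fell against ConCM, was at 6.51 and 6.09 with IL-6, a difference of 0.10. These 4 differences had an adjusted p of 0.998 each, which does not show that the levels are alike. Serpinb5 had a higher mean with IL-6, at 6.28 and 5.84. Genes with a middle level were Emp1, at 8.05 and 8.18, a difference of 0.58 (adjusted p = 0.107), and Timp1, at 6.03 and 5.94, a difference of 0.65 (adjusted p = 0.14). Of the cholesterol genes Hmgcs1 was at 9.90 and 9.99 with IL-6 and Dhcr7 at 9.003 and 9.06, with PlGFCM lower by a margin that was not called (adjusted p = 0.262 and 0.199). Gzmb was at 9.04 and 8.79 with IL-6, near its ConCM level, and PlGFCM was at a difference of -0.73 that missed the threshold (adjusted p = 0.0613).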

How the data were processed

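The deposited values are log2 levels per probe set, 1 value for each of 41345 probe sets on each of the 6 arrays, and the submitters' processing notes name Transcriptome Analysis Console. Version, normalization method and build were not given in the sources used here. The log2 scale was read from the deposited values, whose quartiles nearly coincide across arrays. Arrays were grouped by title and treatment label.

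The platform annotation named 1 symbol for 23521 probe sets, several for 1814 and none for 16010. The brightest probe set per single symbol was kept, which gave 22180 genes with no filter on level. Differences were fitted with limma 3.58.1 in R 4.3.3 (lmFit, then eBayes with an intensity trend) on 6 arrays in 3 groups, with Benjamini-Hochberg adjustment over all genes and a threshold of 0.05. The fit was tested on simulated data. With 2 arrays per group, their number limits the precision.

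The text names the 15 largest increases and the 15 largest decreases called (predicted gene models and receptor segments left out), other called genes on a list, genes called without PlGFCM replicate 2, up to 4 further members per list by smallest p, and a set of pathway genes whatever their values. Genes outside that rule are said to be so. The members and lists were chosen with earlier results of these data known. The alternatives were quantile normalization, subtracted array medians, 2 filters on level, the mean of all probe sets, a prior without trend or with robust estimation, the compared groups alone, array weights, a replicate block, a fold threshold, and each array left out in turn. Promoters came from RefSeq (GRCm38.p6), matched by symbol for 16990 of 22180 genes.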

Additional observations from a re-analysis of the deposited data

How the results depend on the processing

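All 96 genes called between PlGFCM and ConCM kept their sign under every alternative in which they were tested. The count of calls moved with the setting. After quantile normalization 29 genes were lower. Among genes at or above the median level 174 were called, 128 higher and 46 lower, where fewer genes were tested. Without an intensity trend 6 were called, 6 higher and 0 lower. An unadjusted p under 0.05 with at least a 2-fold change gave 20, 18 higher and 2 lower. Leaving out 1 array gave 12 to 107 calls, 12 to 83 higher and 0 to 24 lower. Against IL6_ConCM the 7 calls became 0, with 0 higher, without the trend. 1 gene was lower there after quantile normalization and under each filter on level, and 2 were lower by the unadjusted p and fold. Leaving out 1 array gave 0 to 5 calls there, 0 to 5 higher. The cause of these shifts was not tested.

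The replicate numbers were not taken as pairs, since deviations of same-numbered arrays correlated at -0.039 between ConCM and PlGFCM, 0.11 between ConCM and IL6_ConCM and 0.033 between PlGFCM and IL6_ConCM. With the replicate block 62 genes were called against ConCM, 52 higher and 10 lower, of which 60 were among the 96, and against IL6_ConCM 4 were higher and 1 lower. Genes named above that lost their call under the block include Ccl3, Ccl24, Ceacam1, Clec7a, Fdps, Dhcr7 and Ezh2.

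Signs turned with 1 array left out for genes that were not called. The changes then ran from -0.20 to 0.032 for Cd4, -0.18 to 0.098 for Flt1, -0.53 to 0.12 for Kdm5d, -0.36 to 0.17 for Uty and -0.33 to 4.46 for Xist, each turned without PlGFCM replicate 2. They ran from -0.15 to 0.49 for Nrp1 and from -0.026 to 0.32 for Pgf, turned without ConCM replicate 1 (-0.15 and -0.018) or PlGFCM replicate 1 (-0.037 and -0.026). With 2 arrays per group and 3 residual degrees of freedom, small changes and low levels could not be resolved.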
